A study of Mus musculus with 8 samples.

Results

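The constitutive proteasome genes were followed in spleens of 8-week-old Nix null mice (Nix-/-) and of wild-type mice of the same age. Members were chosen by symbol: every probe set annotated to Psma, Psmb, Psmc or Psmd followed by a digit, leaving out the immunoproteasome genes Psmb8, Psmb9 and Psmb10. The rule found 37 of the 18193 genes that have a probe set of their own (76 of 45037 probe sets): 16 of the core, 17 of the regulatory particle, 3 of chaperones that help to build the regulatory particle, and Psmc3ip, which shares the letters but encodes a recombination factor and is counted apart. Total RNA of whole spleen, not pooled, was hybridised to Affymetrix mouse arrays, each for a single animal. The 4 Nix-null arrays carry the numbers 10, 2, 3 and 6 in their titles and the 4 wild-type arrays 3, 4, 5 and 6. All animals were untreated; strain, sex and the deleted part of the gene are not given in the sources used here. Nix is the mitochondrial protein encoded by Bnip3l.

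The proteasome is the barrel-shaped protease that degrades proteins tagged with ubiquitin. Its core is a stack of rings, with outer rings of alpha subunits that gate the entry and inner rings of beta subunits, among which Psmb5, Psmb6 and Psmb7 carry the active sites. A regulatory particle caps the core: its base holds the ATPases Psmc1 to Psmc6, which unfold the substrate, and its lid holds Psmd14, which cuts off the ubiquitin chain. Maturing red cells use the ubiquitin and proteasome system to clear much of their protein, and immune cells can replace the catalytic beta subunits by Psmb8, Psmb9 and Psmb10.

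The spleen label was checked first. Tested markers were 11 of 12 listed for B cells, 11 of 12 for T cells, 8 of 8 for red pulp macrophages and 7 of 9 for spleen stroma. Of these tested markers 0 stayed below a log2 intensity of 5 in all arrays of a genotype. Testing needed a log2 intensity of at least 5 in at least 4 of 8 arrays, so a marker low in both genotypes could not enter this count. Pancreatic acinar genes set 3 arrays apart: the mean log2 intensity of 11 tested acinar genes (of 20 listed) was 12.89 in Nix-null 3, 11.82 in wild type 3 and 9.76 in wild type 5, against 5.15 to 7.20 in the other 5 arrays. The counts of called proteasome and pathway genes are therefore also given without these 3 arrays. The 3 probe sets of Bnip3l are annotated jointly to a pseudogene and differed by -0.50 to 0.58 in log2 intensity, with 0 called, so they did not check the genotype labels.

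A few genes of the alpha ring, the base and its chaperones were called higher in Nix-null spleen. No gene of the lid or of the beta ring, with its catalytic subunits, was called in either direction. Of 14 tested core genes 2 rose, Psma5 and Psma6, and 0 fell. Of 17 regulatory particle genes 3 rose, Psmc2, Psmc6 and Psmd1, and 0 fell. Of the 3 base chaperones Psmd5 and Psmd9 rose. These calls come from a limma fit over 11027 genes, each represented by its brightest probe set, with a threshold of 0.05 on the Benjamini-Hochberg adjusted p, as do all gene-level adjusted p-values below. Over all genes tested 14.2% rose and 24.1% fell (38.3% called in all), so the share of core genes that rose was close to that of all genes, and the share of regulatory particle genes was little above it. At an unadjusted p under 0.05 there were 3 of 14 core and 7 of 17 regulatory particle genes, both below the share of all genes at that p (48.6%). All 35 representing probe sets read at least 5 in all 8 arrays, so none was tested only because 1 genotype was high.

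The counts rest on differences close to the threshold. Without Nix-null 3, wild type 3 and wild type 5, 0 core genes and 1 regulatory particle gene, Psmc6, were called, where 7.67% of all genes rose and 7.6% fell. Without Nix-null 2, Nix-null 6, wild type 4, wild type 5 or wild type 6, one at a time, 1 core and 1 regulatory particle gene were called in each case, Psma6 and Psmc6, where 11.1% to 13.04% of all genes rose. Without Nix-null 3 alone, 5 regulatory particle genes were called, where 13.3% of all genes rose. The median change of all genes was -0.15 on the log2 scale. Centring the arrays on their medians brought that shift to -0.02, and 3 core and 7 regulatory particle genes were called higher, with 17.1% of all genes higher and 18.7% lower. It also changed the split of all calls, with 47.8% in place of 37.1% of called genes higher.

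**Figure D1:**
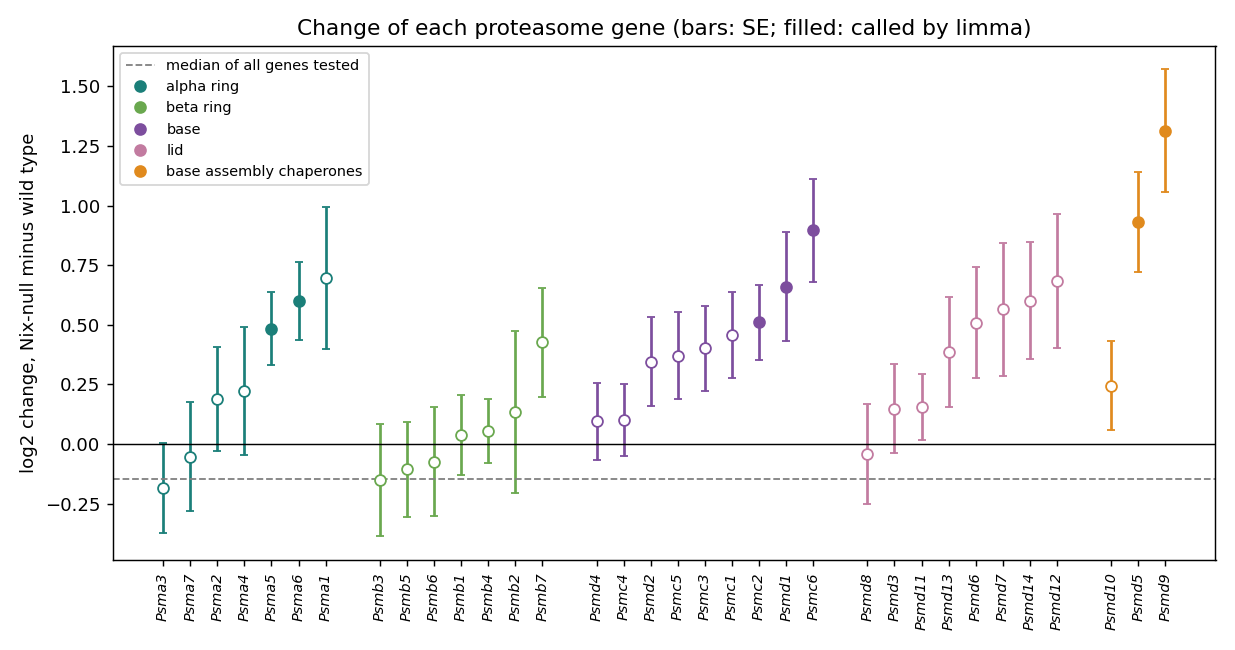
Log2 change of intensity, Nix-null minus wild type, of each tested proteasome gene (n = 4 arrays per genotype), grouped by class; bars are limma standard errors and filled points passed the adjusted p. The beta ring genes lie near 0 except Psmb7 (0.43), the base genes all lie above 0, and Psmd9 has the highest change (1.31).

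Core and regulatory particle were then set side by side. The median log2 change was 0.09 for the core, 0.40 for the regulatory particle and -0.15 for all genes. Of the core genes 9 of 14 had a positive difference, and of the regulatory particle genes 16 of 17, the exception being Psmd8 (-0.04). Over all genes tested 4374 of 11027 did. Above the median change of all genes lay 12 of 14 core and 17 of 17 regulatory particle genes. For each array the genes were centred on their mean over the 8 arrays and averaged by class. The core mean minus the regulatory particle mean was -0.08, 0.01, -0.27 and -0.14 in Nix-null 10, 2, 3 and 6. It was 0.05, 0.14, 0.10 and 0.19 in wild type 3, 4, 5 and 6, so the genotypes did not overlap. Nix-null arrays had a mean of -0.12 ± 0.11 (SD, n = 4). Wild-type arrays had a mean of 0.12 ± 0.06 (SD, n = 4), which left a difference of -0.24. This is a description over members chosen with earlier results known, and no p is given for it. Leaving out single arrays gave -0.28 to -0.19, and leaving out the 3 arrays with acinar signal gave -0.24. Centred means differed, Nix-null minus wild type, by 0.28 for the alpha ring, 0.05 for the beta ring and 0.40 for the regulatory particle. Alpha ring minus beta ring differed by 0.23, so the core was itself split by about as much, though the genotypes overlapped there.

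The alpha and beta rings differed in which wild-type arrays stood low. The centred alpha ring mean was -0.55 in wild type 5 and -0.10 to 0.07 in the other wild-type arrays. In Nix-null 10, 2, 3 and 6 it was 0.01, 0.32, -0.19 and 0.43, so Nix-null 3 was lowest for both rings. The centred beta ring mean stayed between -0.09 and 0.03 in all 4 wild-type arrays, but ran from -0.49 in Nix-null 3 and -0.16 in Nix-null 10 to 0.27 in Nix-null 6 and 0.47 in Nix-null 2. All 7 beta ring genes had a larger SD among Nix-null than among wild-type arrays (median SD 0.45 and 0.10), as did 72.2% of all genes (0.31 and 0.19). For the alpha ring this held for 4 of 7 genes, with median SDs of 0.34 and 0.31.

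Within Nix-null spleens the same arrays were low or high for most subunits. Of 31 core and regulatory particle genes, Nix-null 3 was the lowest Nix-null array for 24, against 34.3% of all genes, and Nix-null 6 or Nix-null 2 the highest for 17 and 13, against 36.7% and 26.7%. Among wild-type arrays wild type 5 was the lowest for 17 of the 31, against 32.2% of all genes, among them 6 of 7 alpha ring but 2 of 7 beta ring genes. Nix-null 3 and wild type 5 are also among the 3 arrays with acinar signal, and the part of that signal in these levels was not tested. The third such array, wild type 3, was the highest wild-type array for 15 of the 31 genes, 12 of them of the regulatory particle.

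**Figure D2:**
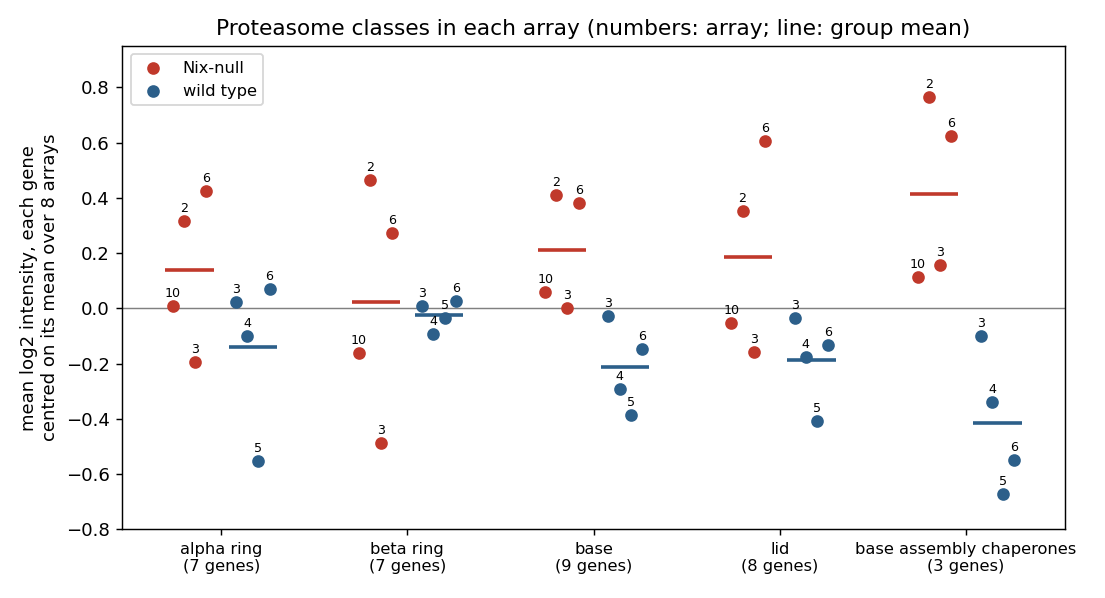
Mean log2 intensity of each proteasome class in every array, each gene centred on its mean over the 8 arrays; numbers are the arrays and lines the group means. The wild-type beta ring points lie between -0.09 and 0.03 while the Nix-null ones run from -0.49 to 0.47, and the chaperone points of the genotypes do not overlap.

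In the alpha ring, Psma6 and Psma5 rose. The brightest probe set of Psma6 read 13.22, 13.72, 13.23 and 13.41 in Nix-null 10, 2, 3 and 6. In wild type 3, 4, 5 and 6 it read 12.94, 12.82, 12.59 and 12.84. Every Nix-null array was above every wild-type array, as for 15.7% of all genes, and the difference was 0.60 ± 0.16 (SE), or 1.51-fold (limma adjusted p = 0.0155). The other 3 tested probe sets of Psma6 were not called, with differences of 0.42, 0.50 and 0.04. The called probe set is of the kind marked _x_at, some of whose probes also match other sequences.

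For Psma5 the levels were 12.46, 12.80, 12.35 and 12.76 in Nix-null 10, 2, 3 and 6 and 12.25, 12.14, 11.99 and 12.07 in wild type 3, 4, 5 and 6. The genotypes did not overlap, with a difference of 0.48 ± 0.15 (SE, 1.40-fold, limma adjusted p = 0.0308). The dimmer probe set of Psma5, which read 9.88 to 10.84 in Nix-null and 9.65 to 10.19 in wild type, was not called (0.40, limma adjusted p = 0.226 over all probe sets). Averaging the probe sets of each gene, Psma5 had an adjusted p of 0.0805 and Psma6 of 0.0606 in the limma fit, so 0 core genes were called.

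The remaining alpha genes were not called. Psma1 had the largest difference of the core, 0.70 ± 0.30 (SE, limma adjusted p = 0.0864), with wild type 5 at 10.84 and the other 3 wild-type arrays at 11.82 to 12.27, and Nix-null arrays at 12.09 to 12.89. Without wild type 5 the difference of Psma1 was 0.40. The differences were 0.19 for Psma2, 0.22 for Psma4, -0.05 for Psma7 and -0.18 for Psma3 (limma adjusted p = 0.516, 0.54, 0.873 and 0.462, in that order). The tissue-restricted subunits Psma8, known from testis, and Psmb11, known from thymus, were below the filter, with log2 intensities of 2.90 to 5.15 and 2.93 to 3.62.

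The 3 catalytic subunits were not called. Psmb5, the chymotrypsin-like subunit, read 10.87, 11.44, 10.51 and 11.18 in Nix-null 10, 2, 3 and 6 and 11.12, 11.01, 11.24 and 11.05 in wild type 3, 4, 5 and 6. Nix-null arrays lay on both sides of the wild-type range, and the difference was -0.11 (95% interval -0.55 to 0.34, limma adjusted p = 0.699). Psmb6, the caspase-like subunit, read 11.003, 11.79, 10.63 and 11.40 in Nix-null 10, 2, 3 and 6 and 11.20, 11.23, 11.36 and 11.32 in wild type 3, 4, 5 and 6. Its groups overlapped too, with a difference of -0.07 (95% interval -0.58 to 0.43, limma adjusted p = 0.822).

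Psmb7, the trypsin-like subunit, read 11.92, 12.50, 11.66 and 12.57 in Nix-null 10, 2, 3 and 6. In wild type 3, 4, 5 and 6 it read 11.91, 11.83, 11.37 and 11.84, so Nix-null 3 lay within the wild-type range. The difference was 0.43 (95% interval -0.08 to 0.93, limma adjusted p = 0.165). These intervals leave room for changes of either sign, so the values do not show that catalytic subunit RNA was equal in the genotypes.

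The immunoproteasome genes that take the places of these subunits were lower. Psmb8, which replaces Psmb5, differed by -1.21, Psmb9, which replaces Psmb6, by -1.17, and Psmb10, which replaces Psmb7, by -1.25 (limma adjusted p = 0.00464, 0.0113 and 0.00402). Nix-null and wild-type arrays did not overlap for any of the 3, as for 23.9% of all genes in this direction. Nix-null 3 was the lowest Nix-null array for each, as it was for Psmb5, Psmb6 and Psmb7. The calls of all 3 held under every alternative run. Markers of B cells, which express immunoproteasome genes, fell in 11 of 11 tested (of 12 listed). The mean log2 intensity of that list was 9.70 to 10.43 in Nix-null and 11.26 to 11.55 in wild-type arrays, with none of its tested markers below 5 throughout a genotype. Of other cell types, markers called lower were 8 of 11 tested for T cells, 6 of 7 for spleen stroma and 2 of 8 for red pulp macrophages. In these lists 0 were called higher, and over all genes 24.1% fell. The part of any of these cell types in the fall of Psmb8, Psmb9 and Psmb10 was not tested. In bulk tissue, fewer cells of a type and less RNA per cell cannot be told apart.

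**Figure D3:**
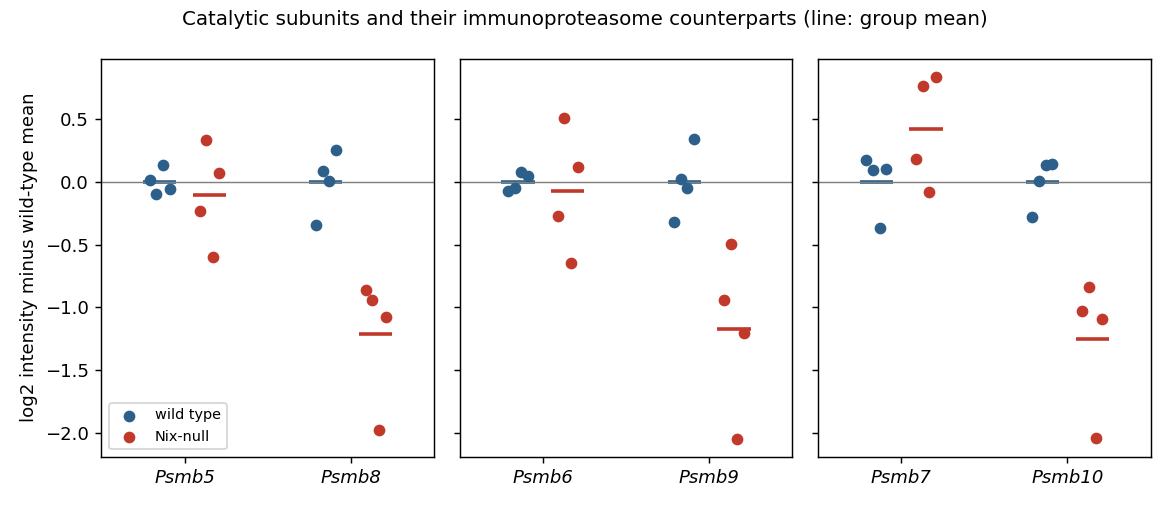
Log2 intensity minus the wild-type mean in each array (n = 4 per genotype) for the catalytic subunits and the immunoproteasome subunits that replace them; lines are group means. Nix-null points of Psmb5, Psmb6 and Psmb7 lie on both sides of 0, and those of Psmb8, Psmb9 and Psmb10 all lie below the wild-type points.

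The structural beta genes Psmb1, Psmb2 and Psmb4 were not called, with differences of 0.04, 0.13 and 0.05 (limma adjusted p = 0.879, 0.781 and 0.777). Psmb2 was the most variable of them, from 7.58 in Nix-null 3 to 9.33 in Nix-null 2. The 2 probe sets of Psmb3 differed in call. Its brighter probe set read 10.55, 11.01, 9.94 and 11.10 in Nix-null 10, 2, 3 and 6 and 10.75 to 10.84 in wild type, with a difference of -0.15 (limma adjusted p = 0.637). The dimmer one read 10.12, 10.38, 9.72 and 9.99 in Nix-null and 10.73, 10.76, 10.53 and 10.83 in wild type 3, 4, 5 and 6. It was lower in all 4 Nix-null arrays, by 0.66 ± 0.17 (SE, limma adjusted p = 0.0184 over all probe sets), and was the only member probe set called lower.

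In the base, Psmc6 rose most firmly. This ATPase read 11.19, 11.18, 11.44 and 11.38 in Nix-null 10, 2, 3 and 6 and 10.92, 10.28, 9.85 and 10.54 in wild type 3, 4, 5 and 6. The genotypes did not overlap, and the difference was 0.90 ± 0.22 (SE, 1.86-fold, limma adjusted p = 0.00931). Unlike in the other subunit genes with several probe sets, all 3 of its probe sets were called higher, by 0.90, 1.27 and 0.77 (limma adjusted p = 0.0154, 0.00284 and 0.00939 over all probe sets).

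Psmd1, a large scaffold subunit of the base, also rose, from 10.02, 9.45, 8.93 and 9.65 in wild type 3, 4, 5 and 6 to 9.94, 10.15, 10.12 and 10.49 in Nix-null 10, 2, 3 and 6. Wild type 3 lay above Nix-null 10, so the genotypes overlapped. The difference was 0.66 ± 0.23 (SE, limma adjusted p = 0.043), and it was not called over all probe sets (limma adjusted p = 0.0596). The call of Psmd1 held in 2 of 8 fits that left out 1 array, with a difference of 0.47 without wild type 5.

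Psmc2, another ATPase, read 13.27, 13.66, 13.23 and 13.58 in Nix-null 10, 2, 3 and 6 and 13.13, 12.92, 12.77 and 12.88 in wild type 3, 4, 5 and 6. These values do not overlap, with a difference of 0.51 ± 0.16 (SE, 1.42-fold, limma adjusted p = 0.0274). They come from an _x_at probe set, and the other tested probe set of Psmc2 was not called (0.46, limma adjusted p = 0.174 over all probe sets). The call of Psmc2 held in 3 of 8 fits that left out 1 array, as did that of Psma5.

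The other 4 ATPase genes were not called: Psmc1, Psmc3, Psmc5 and Psmc4 differed by 0.46, 0.40, 0.37 and 0.10 (limma adjusted p = 0.0679, 0.0977, 0.132 and 0.618). All 6 ATPase genes thus had a positive difference, with a median of 0.43, where 4374 of 11027 genes of all had a positive one. Psmd2, a scaffold that docks ubiquitin carriers, differed by 0.35 (limma adjusted p = 0.167). Psmd4, a receptor for ubiquitin chains, read 11.25, 11.62, 11.13 and 11.68 in Nix-null 10, 2, 3 and 6 and 11.43, 11.27, 11.33 and 11.27 in wild type 3, 4, 5 and 6. Its groups overlapped, with a difference of 0.09 (limma adjusted p = 0.67).

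No lid gene was called, and 2 of 8 had an unadjusted p under 0.05 (limma), Psmd14 and Psmd12, again a share below that of all genes. Psmd14, the deubiquitinase, read 9.92, 10.30, 9.91 and 10.73 in Nix-null 10, 2, 3 and 6 and 9.90, 9.65, 9.02 and 9.87 in wild type 3, 4, 5 and 6. The groups did not overlap, but the gap between wild type 3 and Nix-null 3 was narrow, and the difference was 0.60 ± 0.25 (SE, limma adjusted p = 0.0765). Psmd12 differed by 0.68 (limma adjusted p = 0.0761), Psmd7, the partner of Psmd14, by 0.56, Psmd6 by 0.51, Psmd13 by 0.39, Psmd11 by 0.16 and Psmd3 by 0.15. With arrays centred on their median, Psmd12 and Psmd14 were called, at 0.81 and 0.72 (limma adjusted p = 0.0423 and 0.0415).

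**Figure D4:**
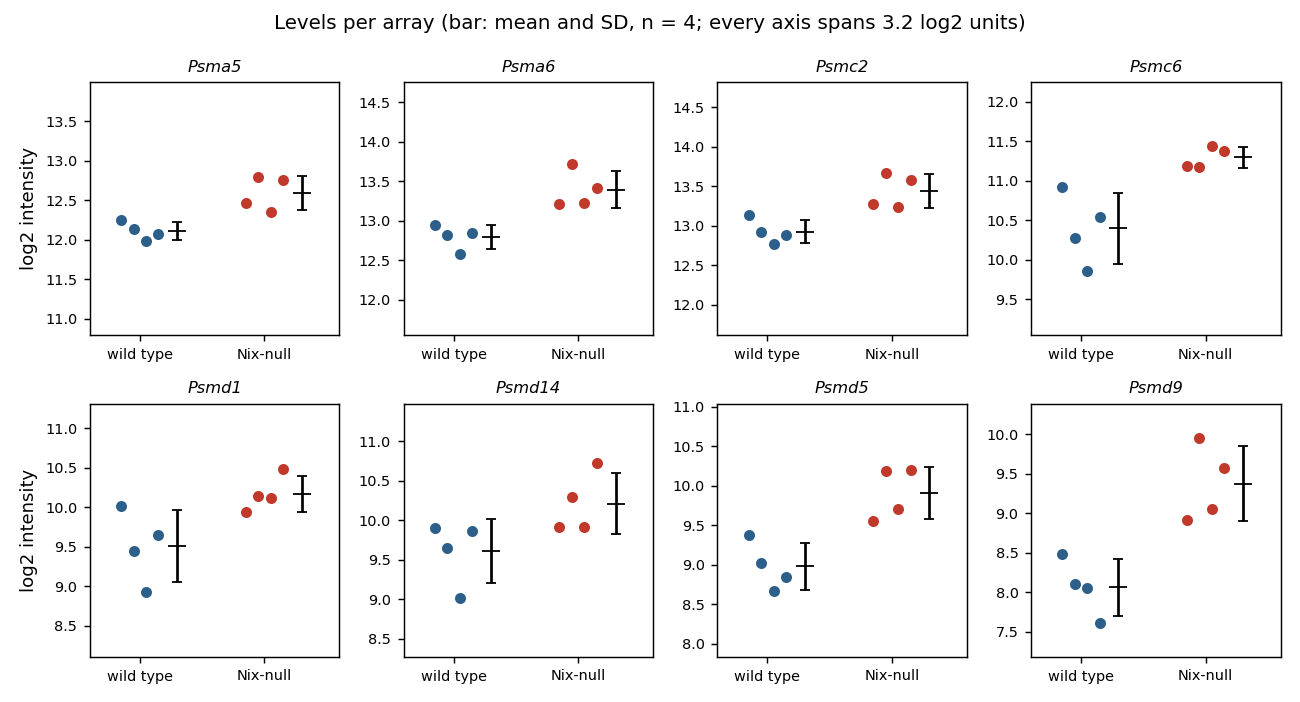
Log2 intensity per array of 8 proteasome genes in wild-type and Nix-null spleen; bars are mean and SD (n = 4), and every axis spans the same width. Psmd1 is the only gene of the 8 whose groups overlap, and wild type 5 is the lowest array for every gene shown except Psmd9.

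Of the chaperones of the base, Psmd9 and Psmd5 rose, and with the brightest probe set for each gene their differences exceeded those of all core and regulatory particle genes. With the mean of a gene's probe sets that order changed: Psmc6 differed by 0.98, Psmd5 by 0.93 and Psmd9 by 0.84, and Psmc6 also exceeded Psmd5 with array weights and without Nix-null 2, Nix-null 6, wild type 3 or wild type 6. These chaperones bind ATPase subunits while the base is built and are absent from the finished particle. Psmd9 read 8.92, 9.95, 9.06 and 9.58 in Nix-null 10, 2, 3 and 6 and 8.49, 8.10, 8.05 and 7.61 in wild type 3, 4, 5 and 6. Every Nix-null array was above every wild-type array, with a difference of 1.31 ± 0.26 (SE, 2.49-fold, limma adjusted p = 0.00379). The dimmer tested probe set of Psmd9 read 7.27, 6.64, 7.38 and 6.16 in Nix-null and 5.997, 6.40, 7.09 and 6.49 in wild type, in the same order of arrays, so the genotypes overlapped, and it was not called (0.37, limma adjusted p = 0.394 over all probe sets).

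Psmd5 read 9.56, 10.18, 9.70 and 10.20 in Nix-null 10, 2, 3 and 6 and 9.37, 9.03, 8.67 and 8.85 in wild type 3, 4, 5 and 6. Its groups did not overlap either, with a difference of 0.93 ± 0.21 (SE, 1.91-fold, limma adjusted p = 0.00667). Both calls held whichever single array was left out (Psmd9 1.12 to 1.47, Psmd5 0.83 to 1.06) and without the 3 arrays with acinar signal. Psmd10, the third chaperone, also called gankyrin, was not called (0.24, limma adjusted p = 0.322), and wild type 5 was its low array (8.58 against 9.16 to 9.22).

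Psmc3ip, the recombination factor caught by the symbol rule, rose in both probe sets, by 1.27 and 1.38 (limma adjusted p = 0.00908 and 0.0125 over all probe sets). It is no proteasome subunit and enters none of the class counts, but it is part of the counts over all members.

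Genes of red cells and of cell division were higher in Nix-null arrays, as were Psmc6, Psmd5 and Psmd9. These 3 are members called higher without overlap, so their sharing of the genotype with these lists was fixed in advance. All 12 tested erythroid markers (of 15 listed) rose, with list means of 12.31 to 12.77 in Nix-null and 11.38, 10.86, 10.58 and 9.38 in wild type 3, 4, 5 and 6. All 14 tested cell division markers (of 15 listed) rose as well, from 9.04 to 10.08 in wild type to 10.89 to 11.44 in Nix-null. Over all genes tested 14.2% rose. No tested marker of either list stayed below 5 in all arrays of a genotype. Among wild-type arrays, wild type 3 was the highest for both lists and for Psmc6, Psmd5 and Psmd9. The lowest was wild type 6 for the erythroid list and Psmd9, and wild type 5 for the cell division list, Psmc6 and Psmd5. For Psmc6, wild type 6 read 10.54, above wild type 4 (10.28) and wild type 5 (9.85), unlike for the erythroid list. The highest Nix-null array was Nix-null 3 for the erythroid list and Psmc6, Nix-null 6 for the cell division list and Psmd5, and Nix-null 2 for Psmd9. The part of either list in the proteasome values was not tested.

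The sequences upstream of 4 members are shown because they hold matches to motifs of factors known to act on proteasome or red cell genes, in 2 members that rose (Psmd9 and Psmc6) and 2 catalytic subunits that were not called (Psmb5 and Psmb6). They are RefSeq sequences of build GRCm38.p6, written 5′ to 3′ on the gene's strand, and capitals mark motif matches. Psmd9 is shown at chr5:123228090-123228189 (plus strand), Psmc6 at chr14:45329574-45329673 (plus), Psmb5 at chr14:54617996-54618095 (minus) and Psmb6 at chr11:70525257-70525356 (plus). The window runs from 100 bases before the gene's start up to the start, except for Psmc6, where the first 100 bases of the 250 before the start are shown.
Psmd9: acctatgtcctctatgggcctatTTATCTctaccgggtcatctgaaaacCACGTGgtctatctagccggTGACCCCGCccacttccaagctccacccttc
Psmc6: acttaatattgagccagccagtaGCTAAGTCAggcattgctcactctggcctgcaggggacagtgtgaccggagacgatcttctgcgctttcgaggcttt
Psmb5: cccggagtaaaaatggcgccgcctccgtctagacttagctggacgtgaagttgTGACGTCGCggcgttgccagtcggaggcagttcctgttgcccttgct
Psmb6: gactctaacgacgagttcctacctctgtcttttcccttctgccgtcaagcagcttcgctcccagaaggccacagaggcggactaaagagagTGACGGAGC

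In Psmd9 the capitals are, in order, a GATA match on the opposite strand, an E-box and a match to the core of the antioxidant response element, through which NFE2L1 and NFE2L2 act; in Psmc6 the latter match lies on the opposite strand. Promoters of 30 of the 37 member genes were in the table, as 300 bases with 250 before and 50 after the start, and both strands were searched. The antioxidant response element core, TGACNNNGC, was found in 5 of the 30 genes: Psmd9, Psmc6, Psmd12, Psmb5 and Psmb6. Of all 32851 promoters 12.4% hold it, and of all 27025 genes 14%. The CCAAT box was found in 13 of the 30 genes, Psmc3ip among them (41.1% of all genes, 37.4% of promoters). It was found in 7 of 12 genes of the core and 4 of 14 of the regulatory particle. The GATA motif AGATAA was found in 2 of the 30 genes, Psmd9 and Psmc6 (12.7% of all genes, 11.2% of promoters). In Psmc6 it lies after the start, outside the window shown. The E-box CACGTG was found in 2 of the 30 genes, Psmd9 and Psma4 (8.09% and 7.15%). In Psmd9 the E-box overlapped no other motif. A match is a run of letters and no evidence of binding.

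Probe sets of the same gene often differed. Of 60 tested member probe sets 10 were called higher and 1 lower, where 12.5% and 17.6% of all probe sets were (30% in all). These counts include the 2 tested probe sets of Psmc3ip, both called higher, which is no proteasome subunit. Another 16 member probe sets were below the filter, 14 of them in every array. Without the 3 arrays with acinar signal 0 member probe sets were called, where 2.24% of all probe sets rose and 0.85% fell. Of 18 genes with several tested probe sets, Psmc3ip included, 5 differed in call (Psma5, Psma6, Psmb3, Psmc2 and Psmd9). The sign of the difference was not the same in 2, Psmd6 and Psmd11. The 2 probe sets of Psmd6 differed by 0.51 and -0.32, and in the second of them Nix-null 10 read 8.98 against 10.23 to 10.35 in the other Nix-null arrays. The brightest probe set of Psmd11 differed by 0.16 and the other 3 by -0.12 to -0.47, and none of these 4 was called. Of the 5 core and regulatory particle genes called, Psmc6 alone was called by more than 1 probe set.

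**Figure D5:**
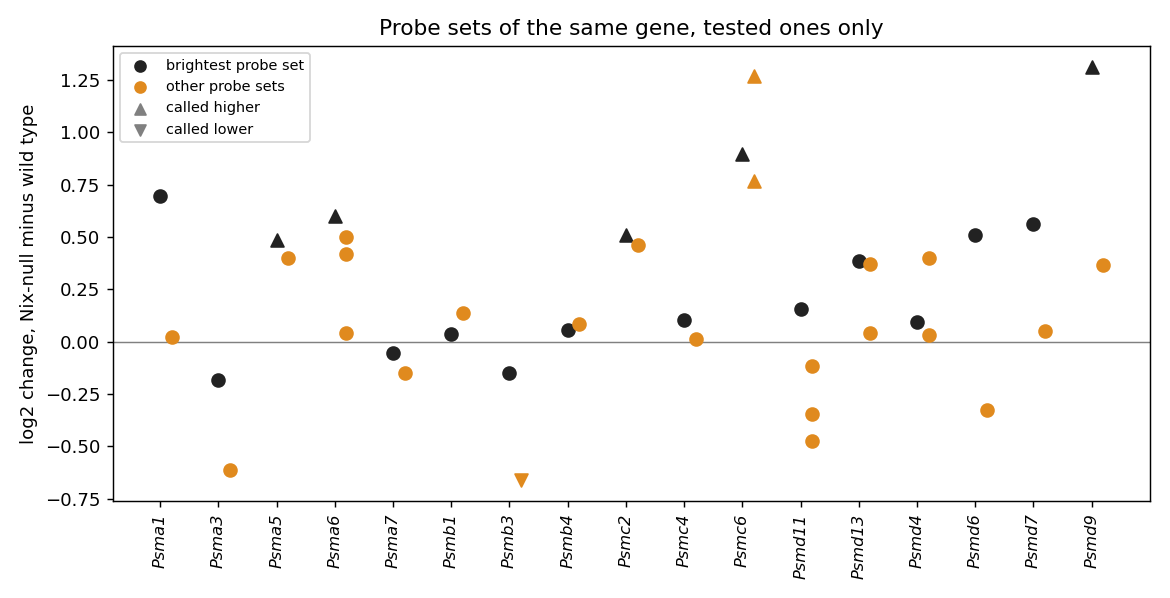
Log2 change, Nix-null minus wild type, of every tested probe set of the 17 proteasome genes with several; black marks the brightest probe set, which represents the gene, and triangles mark calls over all probe sets. All 3 Psmc6 probe sets are called higher, and the only downward triangle is a dimmer probe set of Psmb3 (-0.66).

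Of 28 tested genes in 7 lists of other pathway genes, 6 rose and 6 fell, a share of calls near that of all genes (38.3%). Among activators and inhibitors all 4 tested were called: Psme3 (0.82) and Psme4 (0.91), alternative caps of the core, and Psmf1 (1.03), an inhibitor of the core, rose, while Psme1 (-0.65), part of the interferon-induced cap, fell (limma adjusted p = 0.0108, 0.00717, 0.00521 and 0.0347). The deubiquitinases of the regulatory particle, Usp14 (0.67) and Uchl5 (0.71), rose (limma adjusted p = 0.00958 and 0.0402). In fits that left out 1 array the call of Usp14 held in 8 of 8, that of Uchl5 in 2 of 8 and that of Psme1 in 5 of 8, and centring arrays on their median also ended that of Psme1 (limma adjusted p = 0.0747). Sem1, a small lid subunit outside the symbol rule, differed by -0.04.

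Nfe2l1, which encodes a transcription factor known to raise proteasome genes when the proteasome is impaired, fell by 0.74 on the log2 scale (limma adjusted p = 0.00756). It read 7.96, 7.48, 7.50 and 8.01 in Nix-null 10, 2, 3 and 6 and 8.31, 8.56, 8.58 and 8.46 in wild type 3, 4, 5 and 6, with no overlap. Nfe2l2 differed by 0.23 (limma adjusted p = 0.261). Nfyb, of the factor that binds CCAAT boxes, rose (0.50, limma adjusted p = 0.0482), a call held in 1 of 8 fits that left out 1 array, and Ubqln2, a carrier of ubiquitinated proteins, fell (-0.88, limma adjusted p = 0.013).

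Of the 6 tested factors that assemble or hold together the proteasome, including Pomp and Psmg1 to Psmg4, none was called and 2 had an unadjusted p under 0.05 (limma), where 48.6% of all genes did. Their differences ran from -0.61 to 0.40. Of the ubiquitin genes and activating enzymes 1 of 6 listed was tested, Uba6 (0.14). Without the 3 arrays with acinar signal, 4 of the 12 calls in these lists were left, 1 higher (Psme4) and 3 lower (Psmb8, Psmb9 and Psmb10). Of all genes 15.3% were called in that fit, against 38.3% with all arrays.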

How the data were processed

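Linear intensity values, 1 for each probe set in each array, were deposited by the authors; per the submitters' processing notes they come from GCRMA (its version: not given in the sources used here). GCRMA corrects background, normalizes between arrays and summarises probes, and it pulls weak probe sets to a common low level. The design called for log2 to be taken if the values were linear, so log2 was taken first. After removal of 64 control probe sets, those with a log2 intensity of at least 5 in at least 4 of 8 arrays were tested (22347 of 45037). Array medians ran from 28.8 to 30.6, and the number of arrays limits the precision. Genes were named from the platform annotation, and the brightest single-gene probe set stood for a gene (11027 genes). The genotypes were compared by a two-sided limma test (version 3.58.1, R 4.3.3, lmFit and eBayes), with p-values adjusted by Benjamini-Hochberg over the whole table and the fit tested on simulated data; figures used matplotlib 3.10.9 (Python 3.11.15). Members and lists were chosen with earlier results of these data known. Per-array values are given for the genes called, the catalytic subunits, Psmd14, Psmd4, and genes whose probe sets differed in call; Nfe2l1 was added after its values were seen. Alternatives were the filter, scaling, array weights, averaged probe sets, a replicate block and leaving out arrays.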

Additional observations from a re-analysis of the deposited data

Results flagged for a closer look

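Among the 60 tested member probe sets, 8 had an array far from the other 3 of its genotype (a gap beyond the 95% critical value of Dixon's test); with 120 groups of 4 examined, chance gives about 1 in 20, or 6. Wild type 5 was the array that stood low in 5 of the 8. It read 11.10 for Psma6 (a dimmer probe set, the others 11.87 to 12.03), 11.37 for Psmb7 (the others 11.83 to 11.91), 8.58 for Psmd10 (9.16 to 9.22), 9.86 for Psmd6 (its dimmer probe set, 10.42 to 10.47) and 7.75 for Psmd7 (8.28 to 8.36). Wild type 4 read 8.00 for Psmb2, where the others read 8.43 to 8.49. Nix-null 2 read 10.68 for Psmd13 (a dimmer probe set, the others 9.79 to 9.90), and Nix-null 10 read 8.98 for Psmd6 (the same dimmer probe set, 10.23 to 10.35).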

How the results depend on the processing

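Of 752 values of single genes under 16 alternatives, 642 kept direction and side of the threshold, 69 lost the call, 9 gained one and 32 changed sign, 0 of them with a called value on either side. The core minus regulatory particle difference (-0.24) stayed negative in all 16. Centring on the median shifts all genes of an array alike, and array weights do not enter this difference, so neither could change it. The stricter filter kept the same core and regulatory particle genes and left it unchanged. With arrays centred on their median, 7 regulatory particle genes were called in place of 3, and uncalled differences changed sign for Psma7 (0.069), Psmb5 (0.016), Psmb6 (0.049) and Psmd8 (0.080). The same happened with array weights to Psmb1 (-0.044) and Psmb2 (-0.014). Averaging the probe sets of a gene left 0 core genes and turned Psmd11 (-0.19).

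Without Nix-null 3, wild type 3 and wild type 5, 0 member probe sets, 0 core, 1 regulatory particle and 4 pathway genes were called, in place of 11, 2, 3 and 12. Psma7 (0.12), Psmb3 (0.069), Psmb5 (0.13), Psmb6 (0.12) and Psmd8 (0.11) turned positive. Of all genes 846 rose and 838 fell (1570 and 2657 with all arrays), and of all probe sets 500 and 190 (2789 and 3922). Leaving out single arrays gave 7 to 12 member probe sets, 1 to 2 core and 1 to 5 regulatory particle genes. All probe sets called then fell furthest without wild type 6 (1889 and 2107) and wild type 4 (1979 and 2096). Sign changes of uncalled genes gave ranges of -0.029 to 0.36 for Psma4, -0.24 to 0.14 for Psma7, -0.067 to 0.15 for Psmb1, -0.15 to 0.43 for Psmb2, -0.30 to 0.085 for Psmb3, -0.016 to 0.090 for Psmb4, -0.25 to 0.058 for Psmb5, -0.27 to 0.12 for Psmb6 and -0.21 to 0.12 for Psmd8.

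Arrays numbered 3 and 6 occur in both genotypes, and the deviations of same-numbered arrays correlated by 0.36 and 0.12 over genes for 2 such pairs. Nothing in the labels pairs the animals, and both arrays numbered 3 carry acinar signal. A fit with the replicate number as a block has 1 residual degree of freedom. Under this block 0 member probe sets, 0 core and 0 regulatory particle genes and 4 pathway genes were called, with 772 genes of all higher and 669 lower, and 0 and 1 probe sets. Psmd9, Psmd5 and Psmc6 had limma adjusted p-values of 0.0566, 0.13 and 0.149 in the block fit. Psma2 (-0.036), Psma4 (-0.034), Psmb1 (-0.16), Psmb2 (-0.16), Psmb4 (-0.030) and Psmc4 (-0.054) turned negative in it. The causes of these changes were not tested, and the fits that leave arrays out also rest on fewer arrays. The number of arrays limits every value, and labels do not say whether animals shared a litter or a cage.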
